A study of Homo sapiens with 4 samples.

Results

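The myeloid growth factor receptors are 9 genes, FLT3, KIT, CSF1R, CSF2RA, IL3RA, IL5RA, CSF2RB, CSF3R and EPOR, out of 60662 genes in an RNA-seq table of NB4 cells. They were taken by gene name, and each name had 1 identifier. NB4 is a human acute promyelocytic leukemia (M3/APL) cell line that carries the PML-RARα fusion. The study compared 2 libraries of NB4 cells transduced with an empty lentiviral vector with 2 libraries of NB4 cells transduced with a vector expressing JMJD3, the H3K27 demethylase encoded by KDM6B. Both vectors carry GFP behind an internal ribosome entry site, and per the study's methods GFP-positive cells were isolated by flow sorting and sorted again before use, so that bulk RNA from selected transduced cells was measured. No label tells whether a group's libraries derive from separate transductions, and p-values then measure only the spread between these libraries, which may be technical. Depth in estimated counts was 39078443 for vector library 1, 40768225 for vector library 2, 35176388 for JMJD3 library 1 and 34704909 for JMJD3 library 2. A gene with 0 counts may hold up to 3, which is between 0.0786 and 0.0810 CPM (counts scaled to library size), and this limit covers counting error only.

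Growth factor receptors of myeloid cells belong to different families. FLT3, KIT and CSF1R are class III receptor tyrosine kinases, which dimerize on ligand binding and phosphorylate their own cytoplasmic tails. The receptors of GM-CSF, IL-3 and IL-5 pair a ligand-specific alpha chain (CSF2RA, IL3RA, IL5RA) with a shared beta chain (CSF2RB), while those of G-CSF (CSF3R) and erythropoietin (EPOR) are homodimers, and all of these cytokine receptors lack kinase activity and signal through JAK kinases and STAT factors.

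Expression of KDM6B was examined first, since it tests the labels. Its counts were 584 and 524 in vector libraries 1 and 2 and 1402 and 1635 in JMJD3 libraries 1 and 2. Both JMJD3 libraries lay above both vector libraries, with a log2 fold change of 1.48 (standard error (SE) 0.13, 95% interval 1.17 to 1.78, adjusted p = 0.00114 by edgeR's quasi-likelihood test with Benjamini-Hochberg adjustment). Vector-borne and endogenous KDM6B transcripts cannot be told apart in gene counts.

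Among the receptor genes, CSF1R, EPOR and CSF2RB rose and FLT3 fell in JMJD3 cells. Of the 9 genes, 7 passed the filter on low counts and were tested, and 3 were called higher and 1 lower (adjusted p below 0.05). Among the 15246 genes tested in all, 21.6% were higher, 19.1% were lower and 40.7% were called in either direction, so that calls were frequent in this comparison. With at least a 2-fold change required as well, CSF1R and EPOR were higher and FLT3 was lower, where 7.55% and 2.82% of all genes were called. Groups did not overlap in CPM for 5 of the 7 receptor genes, as for 74.4% of all genes. The median log2 fold change was 0.26 over the 7 genes and 0.04 over all genes tested. In bulk RNA, a different share of cells with a transcript and a different amount of it per cell cannot be told apart.

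**Figure D1:**
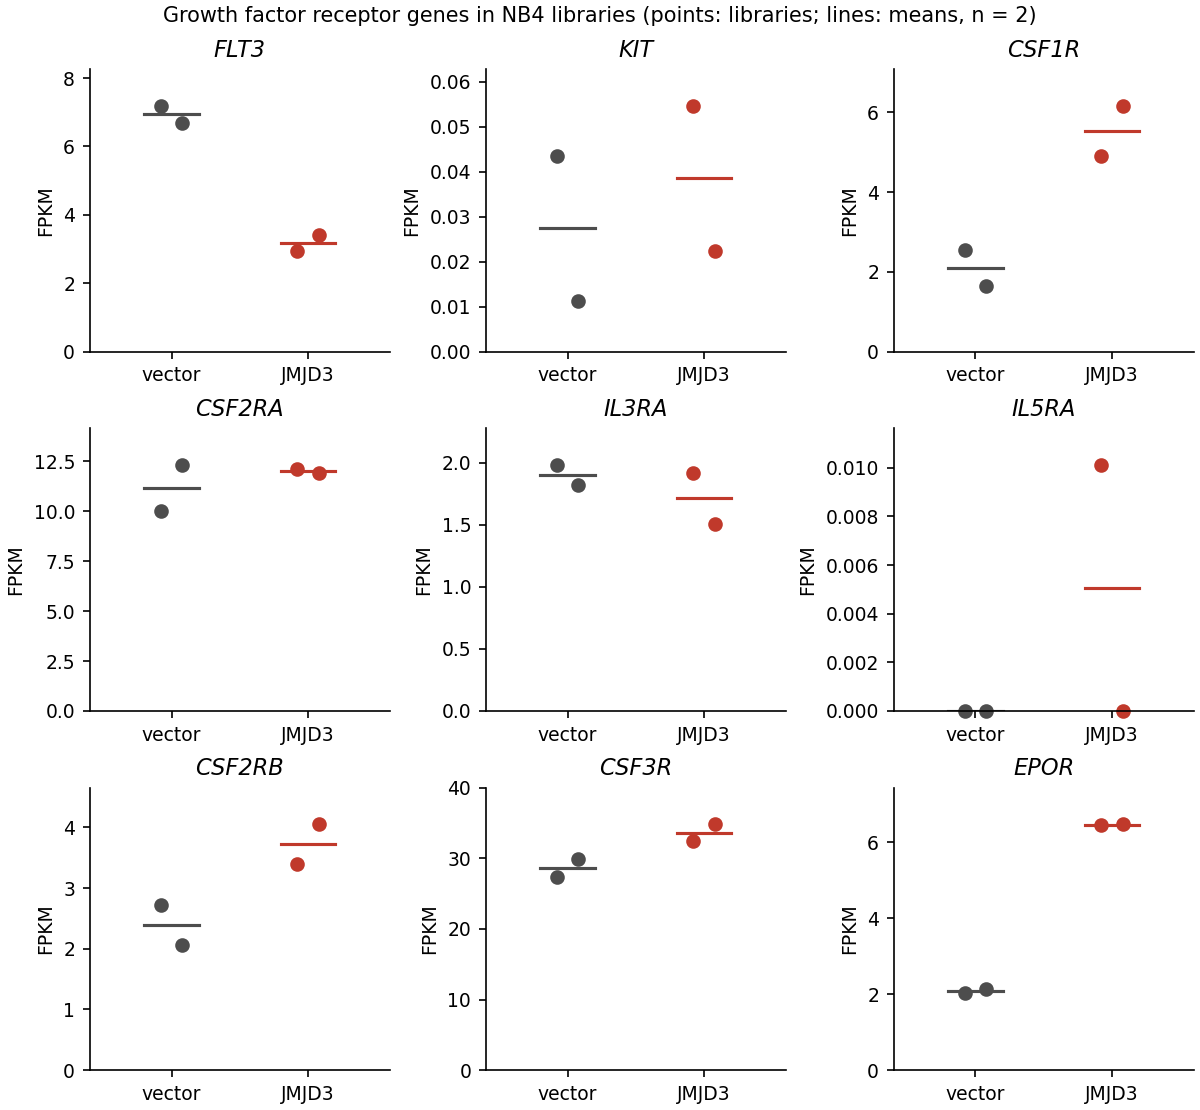
FPKM of the 9 receptor genes in each library, with vector libraries in gray and JMJD3 libraries in red; points are libraries, lines are means of 2 libraries, and each panel has its own axis from 0. FLT3 lies between 6.70 and 7.18 in vector libraries and between 2.95 and 3.41 in JMJD3 libraries, while CSF1R, EPOR and CSF2RB are higher in both JMJD3 libraries.

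Levels of different genes were compared on FPKM, which is scaled to transcript length. The length implied by count, depth and FPKM was not fixed for a gene. Its median over tested genes was 1671 and 1633 bases in vector libraries 1 and 2 and 1872 bases in each JMJD3 library. For CSF1R it was 1827 and 2176 in vector libraries 1 and 2 and 2771 and 2244 in JMJD3 libraries 1 and 2. TMM library scaling factors were 0.949 and 0.9367 in vector libraries 1 and 2 and 1.054 and 1.068 in JMJD3 libraries 1 and 2. Like the median length, they were higher in both JMJD3 libraries, and whether FPKM holds such scaling was not tested. A factor shared by all genes of a library moves sums of FPKM but not orders or ratios within that library. Differences particular to a gene, as for CSF1R, are carried by orders, sums and ratios alike. In vector cells the order of mean FPKM was CSF3R (28.7), CSF2RA (11.2), FLT3 (6.94), CSF2RB (2.39), CSF1R (2.11), EPOR (2.09), IL3RA (1.90), KIT (0.0274) and IL5RA (0). CSF2RB overlapped CSF1R, and CSF1R overlapped EPOR, in the range of their libraries, so that these neighbours did not differ beyond their spread. In JMJD3 cells the order was CSF3R (33.6), CSF2RA (12.0), EPOR (6.46), CSF1R (5.53), CSF2RB (3.73), FLT3 (3.18), IL3RA (1.71), KIT (0.0385) and IL5RA (0.00504), and only CSF2RB and FLT3 overlapped there among neighbours. FLT3 stood in place 3 in vector cells and in place 6 in JMJD3 cells, and EPOR moved from place 6 to place 3. The FPKM of the 9 genes summed to 54.0 in vector library 1, 56.6 in vector library 2, 64.3 in JMJD3 library 1 and 68.3 in JMJD3 library 2. CSF3R made up between 50.5% and 52.9% of that sum in each of the 4 libraries.

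FLT3, the receptor of FLT3 ligand on hematopoietic progenitors, lies on the minus strand at chr13:28003274-28100576 (RefSeq, GRCh38.p14). The promoters of the receptors whose change was at least 2-fold are shown here because these genes moved most: 1 for FLT3, 1 for EPOR, and 1 for each of the 2 annotated starts of CSF1R. Each runs from 250 bases before to 50 bases after a transcription start, on the minus strand of GRCh38.p14 as given by RefSeq, and is written 5′ to 3′, for FLT3 at chr13:28100527-28100826, for CSF1R at chr5:150113316-150113615 (start 1) and chr5:150086505-150086804 (start 2), and for EPOR at chr19:11384265-11384564. Capitals mark matches on either strand to GAGGAA (a core bound by PU.1), to TTGCNNAA and the shorter TTGCAA of C/EBP factors, to TGTGGT of RUNX factors and to AGATAA of the factors of the GATA family.
FLT3: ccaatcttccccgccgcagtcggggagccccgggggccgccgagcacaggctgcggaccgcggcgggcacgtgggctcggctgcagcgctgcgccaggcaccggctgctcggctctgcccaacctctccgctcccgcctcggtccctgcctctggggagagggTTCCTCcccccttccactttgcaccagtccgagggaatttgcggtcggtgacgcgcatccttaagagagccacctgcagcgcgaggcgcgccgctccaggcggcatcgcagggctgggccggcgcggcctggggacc
CSF1R start 1: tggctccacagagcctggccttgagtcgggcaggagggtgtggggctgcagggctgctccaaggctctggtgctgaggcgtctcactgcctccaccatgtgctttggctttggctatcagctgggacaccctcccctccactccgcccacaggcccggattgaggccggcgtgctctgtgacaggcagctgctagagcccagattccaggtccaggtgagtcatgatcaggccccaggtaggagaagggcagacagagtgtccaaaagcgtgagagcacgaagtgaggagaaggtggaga
CSF1R start 2: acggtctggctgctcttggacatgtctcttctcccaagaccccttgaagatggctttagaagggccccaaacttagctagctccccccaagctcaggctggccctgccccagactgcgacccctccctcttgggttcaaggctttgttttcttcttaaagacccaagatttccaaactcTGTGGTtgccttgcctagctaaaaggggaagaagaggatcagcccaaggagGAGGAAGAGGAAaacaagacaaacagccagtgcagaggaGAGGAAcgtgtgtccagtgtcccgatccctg
EPOR: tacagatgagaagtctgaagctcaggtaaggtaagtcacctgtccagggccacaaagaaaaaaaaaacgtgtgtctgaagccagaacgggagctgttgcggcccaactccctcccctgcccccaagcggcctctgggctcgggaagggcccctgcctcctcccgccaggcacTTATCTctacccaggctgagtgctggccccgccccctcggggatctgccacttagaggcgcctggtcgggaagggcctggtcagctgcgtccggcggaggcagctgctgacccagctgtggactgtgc

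The FLT3 window held 1 match, to GAGGAA on the opposite strand with its first printed base at position -87 from the start. CSF1R start 2 held 3 matches to GAGGAA, at -20, -14 and 20, and 1 to TGTGGT at -71, and start 1 held none of these letters. The EPOR window held 1 match, to AGATAA on the opposite strand at -78. Receptors with no call held such matches too, with GAGGAA at -63 and -20 in CSF2RA, TTGCNNAA at -240 in IL3RA, TTGCNNAA at -206 and TGTGGT at 15 in CSF3R start 1, and GAGGAA at -111 and TTGCAA at -48 in CSF3R start 2. Of 34961 promoter windows of the same length outside chromosome Y, 27.9% held GAGGAA, 13.1% TGTGGT, 10.3% AGATAA, 10.4% TTGCNNAA and 5.51% TTGCAA. These matches describe letters and were not tested as binding sites. G and C made up 74.0% of the FLT3 window, 62.3% and 54.0% of CSF1R starts 1 and 2 and 63.3% of the EPOR window, against a median of 58.7% over all windows. Windows were found for 8 of the 9 genes, and CSF2RB had no entry.

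Of the class III receptor tyrosine kinases, FLT3 fell, CSF1R rose and KIT was barely detected. FLT3 (ENSG00000122025) had counts of 890 and 827 in vector libraries 1 and 2 and 391 and 426 in JMJD3 libraries 1 and 2. Both JMJD3 libraries were below both vector libraries. In CPM, FLT3 was 22.8 ± 1.66 (SD, n = 2) in vector and 11.0 ± 0.669 (SD, n = 2) in JMJD3 cells. The log2 fold change was -1.05 (SE 0.11, 95% interval -1.32 to -0.78), a level 2.07-fold lower, with an adjusted p of 0.00189 by edgeR's quasi-likelihood test. Vector library 1 was sequenced on lane 20, and lane 17 held the remaining 3. Within lane 17, with 1 vector library assumed to vary like the JMJD3 libraries, the log2 fold change was -1.02.

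CSF1R (ENSG00000182578, minus strand, chr5:150053295-150113365), the receptor of M-CSF and IL-34 that marks the monocyte and macrophage lineage, went the other way. Its counts were 183 and 147 in vector libraries 1 and 2 and 479 and 479 in JMJD3 libraries 1 and 2. The groups did not overlap, and vector library 2 was the lowest of the 4. CSF1R was at 4.39 ± 0.768 CPM (SD, n = 2) in vector and 12.9 ± 0.000451 CPM (SD, n = 2) in JMJD3 cells. This is a log2 fold change of 1.56 (SE 0.15, 95% interval 1.20 to 1.92, adjusted p = 0.00140 by edgeR's quasi-likelihood test), and 1.70 within lane 17. The SD of 0.000451 comes from equal rounded counts of 479 in both JMJD3 libraries and does not measure how precisely the level is known. On the FPKM scale the JMJD3 libraries were less alike, with 4.91 and 6.15 against 2.56 and 1.65 in vector libraries. The ratio of FLT3 to CSF1R FPKM was 2.80 and 4.05 in vector libraries 1 and 2 and 0.602 and 0.554 in JMJD3 libraries 1 and 2, so that FLT3 was the more abundant of both in vector cells and the less abundant in JMJD3 cells.

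KIT (ENSG00000157404), the receptor of stem cell factor, was near the limit of detection. It had 8 and 2 counts in vector libraries 1 and 2 and 4 and 4 in JMJD3 libraries 1 and 2. The groups overlapped, and KIT did not pass the filter on low counts. With no filter it was not called (log2 fold change -0.30, adjusted p = 0.820 by edgeR's quasi-likelihood test), and the DESeq2 Wald test gave it no adjusted p (unadjusted p = 0.823).

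Among the ligand-specific alpha chains, CSF2RA and IL3RA were expressed in all 4 libraries and neither was called. CSF2RA (ENSG00000198223), the GM-CSF binding chain, was at 10.0 and 12.3 FPKM in vector libraries 1 and 2 and at 12.1 and 11.9 FPKM in JMJD3 libraries 1 and 2. The JMJD3 values lay between those of the vector libraries. The log2 fold change was -0.04 (SE 0.13, 95% interval -0.34 to 0.26, adjusted p = 0.828 by edgeR's quasi-likelihood test), and its sign turned with limma on FPKM (0.11), without vector library 2 (0.09) and without JMJD3 library 2 (0.01). Within lane 17 the CSF2RA log2 fold change was -0.21 with no call.

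IL3RA (ENSG00000185291), the IL-3 binding chain known as CD123, was at 1.98 and 1.82 FPKM in vector libraries 1 and 2 and at 1.92 and 1.51 FPKM in JMJD3 libraries 1 and 2. The groups overlapped, and JMJD3 library 2 was the lowest. The log2 fold change was -0.07 (SE 0.18, 95% interval -0.51 to 0.37, adjusted p = 0.777 by edgeR's quasi-likelihood test) and was 0.08 without JMJD3 library 2 and -0.11 within lane 17. CSF2RA and IL3RA lie next to each other in the pseudoautosomal region of the sex chromosomes, at chrX:1268814-1325218 and chrX:1336785-1382689 of GRCh38.p14. IL5RA (ENSG00000091181), the IL-5 binding chain of eosinophils and basophils, had 2 counts in JMJD3 library 1 and 0 in the other libraries, all under the limit of 3 counts. It did not pass the filter, and with no filter it was not called (adjusted p = 0.507 by edgeR's quasi-likelihood test), while the DESeq2 Wald test gave it no adjusted p (unadjusted p = 0.620).

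The beta chain shared by the GM-CSF, IL-3 and IL-5 receptors, CSF2RB (ENSG00000100368, chr22:36913628-36940439), had counts of 449 and 348 in vector libraries 1 and 2 and 549 and 651 in JMJD3 libraries 1 and 2. Both JMJD3 libraries were above both vector libraries, but the libraries of each group also differed from each other. In CPM it was 10.6 ± 2.12 (SD, n = 2) in vector and 16.2 ± 1.95 (SD, n = 2) in JMJD3 cells. The log2 fold change was 0.61 (SE 0.17, 95% interval 0.22 to 1.01), a level 1.53-fold higher, with an adjusted p of 0.0269 by edgeR's quasi-likelihood test. This call depended on single libraries. The fold change was 0.48 without JMJD3 library 2 (adjusted p = 0.132) and 0.41 without vector library 2 (adjusted p = 0.0518), and the adjusted p ranged from 0.000206 to 0.132 over 13 other settings of edgeR, DESeq2 and limma. Within lane 17 the log2 fold change was 0.79.

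Alpha and beta chains can be set against each other within a library on FPKM. CSF2RA was 3.69 and 5.92 times CSF2RB in vector libraries 1 and 2 and 3.57 and 2.94 times CSF2RB in JMJD3 libraries 1 and 2. Both JMJD3 ratios were below both vector ratios, although vector library 1 and JMJD3 library 1 were close to each other. IL3RA was 0.730 and 0.881 times CSF2RB in vector libraries 1 and 2 and 0.566 and 0.372 times CSF2RB in JMJD3 libraries 1 and 2. The ratios were not tested.

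The homodimeric receptors were both higher in each JMJD3 library, and EPOR alone passed the test. CSF3R (ENSG00000119535, minus strand, chr1:36466043-36483314), the G-CSF receptor of the granulocyte lineage and the most abundant of the 9 genes on FPKM in every library, was at 27.4 and 29.9 FPKM in vector libraries 1 and 2 and at 32.5 and 34.8 FPKM in JMJD3 libraries 1 and 2. The groups did not overlap, and both JMJD3 libraries were the higher. The log2 fold change was 0.26 (SE 0.09, 95% interval 0.05 to 0.47), and its adjusted p of 0.0551 by edgeR's quasi-likelihood test missed the threshold. It passed without vector library 2 (log2 fold change 0.30, adjusted p = 0.0175), and the adjusted p ranged from 0.0175 to 0.436 over 13 other settings of edgeR, DESeq2 and limma. Within lane 17 the CSF3R log2 fold change was 0.17 with no call.

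EPOR (ENSG00000187266, minus strand, chr19:11377207-11384314), the erythropoietin receptor, had counts of 107 and 114 in vector libraries 1 and 2 and 327 and 321 in JMJD3 libraries 1 and 2. The libraries of a group were nearly alike, and the groups stood far apart. EPOR was at 2.94 ± 0.0709 CPM (SD, n = 2) in vector and 8.75 ± 0.114 CPM (SD, n = 2) in JMJD3 cells. Its log2 fold change of 1.57 (SE 0.13, 95% interval 1.26 to 1.89, adjusted p = 0.00107 by edgeR's quasi-likelihood test) was the largest among the 7 receptor genes tested, although its interval overlapped that of CSF1R. Within lane 17 it was 1.51. In mean FPKM, 29.6% of all tested genes lay below EPOR in vector cells and 43.8% in JMJD3 cells. In the same terms FLT3 moved from 47.6% to 32.8%.

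**Figure D2:**
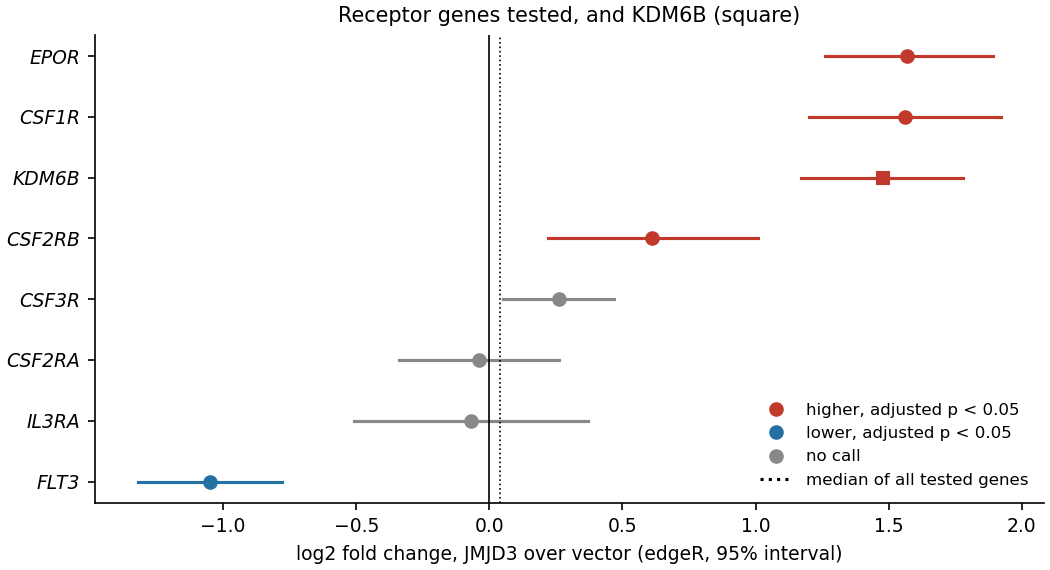
Log2 fold change of JMJD3 over vector with its 95% interval for the 7 receptor genes tested and KDM6B (square), from edgeR; red is a call higher and blue a call lower (adjusted p below 0.05), gray is no call, and the dotted line is the median of all tested genes (0.04). EPOR (1.57) and CSF1R (1.56) lie beside KDM6B (1.48), and FLT3 (-1.05) is the only receptor gene with its interval wholly below 0.

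Reads from overlapping genes can be hard to assign, and the labels name an RNA kit but no strand setting. In GENCODE release 44 on GRCh37, exons of other genes covered 2.27% of the exon bases of IL5RA and 0.0650% of those of EPOR, and these overlapping genes (CNTN4-AS1 and RGL3) had 0 counts in every library. The other 7 receptor genes shared no exon bases with another gene. RPL7P1, a ribosomal protein pseudogene, lies within CSF1R and had an adjusted p of 0.0611 by edgeR's quasi-likelihood test (log2 fold change -0.30), and was called lower without vector library 1 (-0.45), with the DESeq2 Wald test (-0.33) and with the crossed block. Its reads may be shared with copies of RPL7.

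The nearest tested genes on either side of the called receptors did not share their direction at the threshold. Beside EPOR, SWSAP1 had a log2 fold change of -0.07 and PRKCSH of -0.27, and beside CSF1R the other neighbour HMGXB3 had -0.21 (called lower without vector library 1 (-0.28), with limma after adding 1 (-0.37) or 0.1 (-0.38) to FPKM and with the crossed block). Of these, PRKCSH alone was called (adjusted p = 0.0335 by edgeR's quasi-likelihood test), and it lost the call without JMJD3 library 1 (adjusted p = 0.243) and without JMJD3 library 2 (adjusted p = 0.290), with a range of 0.00240 to 0.290 over 13 settings of edgeR, DESeq2 and limma. LINC00543 and PAN3-AS1 beside FLT3 had log2 fold changes of 0.66 and 0.46, and NCF4 and TST beside CSF2RB of -0.09 and -0.20, with no call in any of these 4. Leaving out vector library 1 gave NCF4 (-0.21) and TST (-0.41) a call, and leaving out vector library 2 gave PAN3-AS1 (0.72) one. Beside CSF3R, MRPS15 fell with a log2 fold change of -0.68 and GRIK3 was at 0.23 with no call. PPP2R3B, on the far side of CSF2RA, was at 0.04, while SLC25A6 beside IL3RA was at -0.36 and was called lower. CHIC2 (0.55) beside KIT and TRNT1 (0.39) beside IL5RA were called higher, and SRD5A3 (-0.08), the other neighbour of KIT, was not. The calls of SLC25A6 (-0.37 and -0.34), CHIC2 (0.54 and 0.57) and TRNT1 (0.42 and 0.37) were lost without JMJD3 library 1 and without JMJD3 library 2.

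The genes most like the 3 receptors with the largest changes were found by the root mean square difference in log2(FPKM + 0.1) over the 4 libraries. For EPOR these were ACRBP (difference 0.17) and ARHGEF10 (0.18), for CSF1R SLC44A1 (0.083) and APAF1 (0.098), and for FLT3 EFNB1 (0.083) and NOL9 (0.11). ACRBP was at 1.62 and 2.11 FPKM in vector libraries 1 and 2 and at 6.82 and 6.14 FPKM in JMJD3 libraries 1 and 2. EFNB1 was at 6.73 and 7.22 FPKM in vector libraries 1 and 2 and at 3.07 and 3.25 FPKM in JMJD3 libraries 1 and 2. In counts, the log2 fold changes of ARHGEF10 (0.99) and SLC44A1 (0.90) were smaller than those of EPOR (1.57) and CSF1R (1.56). The measure rests on 4 libraries and describes FPKM levels only.

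Few ligand genes of these receptors were transcribed in NB4 cells. Of 10 ligand genes, 3 passed the filter, 1 was higher and 0 were lower, and CSF2, CSF3, IL3 and KITLG had 0 counts in all 4 libraries. FLT3LG, the ligand of FLT3, was at 4.20 and 4.22 FPKM in vector libraries 1 and 2 and at 6.89 and 6.30 FPKM in JMJD3 libraries 1 and 2. It was thus higher in both JMJD3 libraries while its receptor was lower, with a log2 fold change of 0.66 (SE 0.16, adjusted p = 0.0168 by edgeR's quasi-likelihood test). Without JMJD3 library 1 the adjusted p was 0.127, the highest of 13 settings of edgeR, DESeq2 and limma, and the lowest was 0.00299. THPO, which encodes thrombopoietin, had a log2 fold change of 0.78 and no call (adjusted p = 0.0734 by edgeR's quasi-likelihood test), but passed without vector library 2 (adjusted p = 0.0343, range 0.0206 to 0.334 over 13 settings). CSF1, which encodes the M-CSF ligand of CSF1R, had between 13 and 23 counts, a log2 fold change of -0.62 and no call.

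Over the pathway lists, which hold ligands, related receptors, JAK and STAT genes, adaptors and kinases, negative regulators, targets and regulators of the receptor genes, 138 of 163 genes were tested. Of these, 53 (38.4%) were higher and 22 (15.9%) were lower, against 21.6% and 19.1% of all genes tested, and the median log2 fold change was 0.19 against 0.04. The lists were chosen with earlier results of these data known, so these shares describe the lists and test no excess. The count of genes higher fell to 32 without JMJD3 library 2, and that of genes lower to 9 and 8 without JMJD3 libraries 1 and 2.

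**Figure D3:**
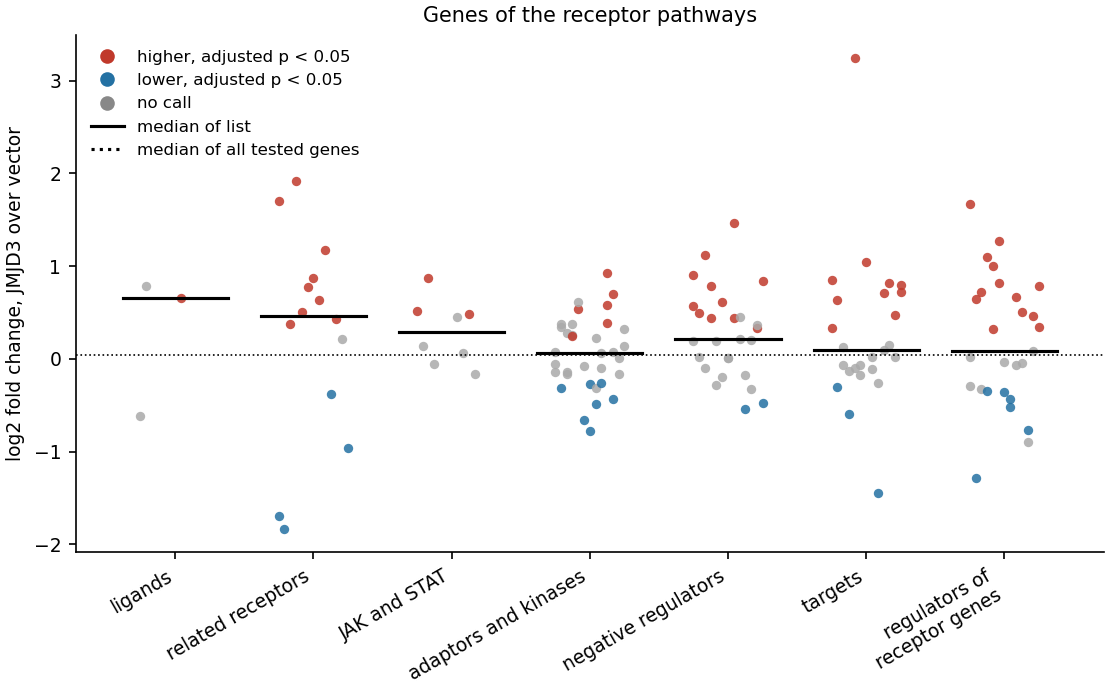
Log2 fold change of JMJD3 over vector for each tested gene of the 7 pathway lists, with genes called higher in red, lower in blue and no call in gray; bars are list medians and the dotted line is the median of all tested genes (0.04). The highest point is EGR1 (3.24) among targets, and the lowest is FLT1 (-1.83) among related receptors.

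Of 24 related receptors, 14 were tested, 9 were higher and 4 were lower, with a median log2 fold change of 0.46. The largest rises were in IL2RB (1.92), a chain of the IL-2 and IL-15 receptors, PDGFRB (1.70), a class III kinase like FLT3 and CSF1R, and FLT4 (1.17), a VEGF receptor. FLT1 (-1.83), another VEGF receptor, and IL9R (-0.96), the IL-9 binding chain, were among those that fell. IL2RB, PDGFRB and FLT1 were low, with at most 29, 36 and 23 counts in a library. FLT4 and PDGFRB kept their calls without each library, but that of PDGFRB was lost with limma after adding 1 (0.34) or 0.1 (1.29) to FPKM. Without JMJD3 library 2 the calls of IL2RB (log2 fold change 1.79) and FLT1 (-1.42) were lost, and that of IL9R was lost without any 1 of the 4 libraries (between -1.24 and -0.71).

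JAK and STAT genes carry the signal of the cytokine receptors. Of 10 genes 8 were tested, 3 were higher and 0 were lower, with a median log2 fold change of 0.29. The transcription factors STAT5A and STAT5B, which act downstream of the GM-CSF, IL-3, IL-5, erythropoietin and FLT3 receptors, were both among them. STAT5A was at 22.0 and 23.0 FPKM in vector libraries 1 and 2 and at 38.6 and 39.9 FPKM in JMJD3 libraries 1 and 2. This is a log2 fold change of 0.87 (SE 0.09, adjusted p = 0.00148 by edgeR's quasi-likelihood test), while that of STAT5B was 0.48 and that of JAK1 0.52. Without JMJD3 library 2 the calls of STAT5B (adjusted p = 0.0928) and JAK1 (adjusted p = 0.0922) were lost, and over 13 settings of edgeR, DESeq2 and limma their adjusted p ranged from 5.91e-05 to 0.0928 and from 0.000142 to 0.0922.

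Adaptors and kinases were divided. Of 36 genes 34 were tested, 6 were higher and 7 were lower, and the median log2 fold change of 0.06 was near that of all genes. The largest rises were in SOS2 (0.93), an exchange factor of RAS, GAB2 (0.70), a docking protein of PI3 kinase and SHP2, and PIK3CA (0.58), a catalytic subunit of PI3 kinase. The largest falls were in PLCG1 (-0.78), a phospholipase C, HRAS (-0.66) and AKT2 (-0.49). The call of PIK3CA was lost without JMJD3 library 2 (log2 fold change 0.54), and that of AKT2 without JMJD3 library 1 (-0.47) or 2 (-0.51). With 1 library left out, the log2 fold change of PIK3CA ranged from 0.33 to 0.84. GAB2 lost its call with limma after adding 1 (0.38) or 0.1 (0.46) to FPKM.

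Negative regulators of receptor signaling included 28 genes, of which 27 were tested, 11 were higher and 2 were lower, with a median log2 fold change of 0.21. CBLB, a ubiquitin ligase that acts on activated receptors, rose most (1.46), from 40 and 44 counts in the vector libraries to 111 and 117 in JMJD3 libraries 1 and 2. DOK2 (1.12), an adaptor that restrains RAS, and PTPRC (0.90), the phosphatase CD45, followed. PTPRC had 2980 and 1933 counts in vector libraries 1 and 2 and 4366 and 4688 in JMJD3 libraries 1 and 2, so that its vector libraries were spread. DOK3 (-0.54) and PTPN2 (-0.48), a phosphatase of JAK and STAT proteins, fell. Without JMJD3 library 1 the calls of DOK3 (-0.50) and PTPN2 (-0.48) were lost, and without JMJD3 library 2 that of PTPN2 (-0.48). With no filter those of DOK2 and PTPRC were lost, and that of DOK2 also with limma on log2(FPKM + 0.1) (1.11), and DOK2 ranged from 0.67 to 1.69 with 1 library left out.

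Among 25 genes known as targets of these receptors, all tested, 10 were higher and 3 were lower, with a median log2 fold change of 0.10. EGR1, an immediate early factor induced by growth factors, had counts of 130 and 117 in vector libraries 1 and 2 and 1131 and 1165 in JMJD3 libraries 1 and 2. Its log2 fold change was 3.24 (SE 0.12, adjusted p = 0.000207 by edgeR's quasi-likelihood test), and the groups were far apart. ID1 (1.04), an inhibitor of helix-loop-helix factors with at most 30 counts in a library, and BCL2 (0.85), an inhibitor of apoptosis, also rose. CCND2 (-1.45), a D-type cyclin, PIM3 (-0.60), a survival kinase, and MYC (-0.30) fell. The call of ID1 was lost without any 1 of the 4 libraries (log2 fold change between 0.92 and 1.12) and that of MYC without JMJD3 library 1 (-0.31) or 2 (-0.29).

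The next list holds transcription factors known to act on receptor genes in blood cells. Of 30 genes 27 were tested, 13 were higher and 6 were lower, with a median log2 fold change of 0.08. GFI1B (1.67) and GATA1 (1.27), factors of the erythroid and megakaryocyte lineages, and ETS1 (1.10) rose most, and HOXA9 (-1.28), ETS2 (-0.77) and CEBPA (-0.52), a driver of granulocyte differentiation, fell most. GATA1 was at 1.16 and 0.999 FPKM in vector libraries 1 and 2 and at 2.48 and 2.41 FPKM in JMJD3 libraries 1 and 2. GFI1B was at 0.945 and 1.47 FPKM in vector libraries 1 and 2 and at 3.87 and 3.65 FPKM in JMJD3 libraries 1 and 2, so that both factors rose from low levels. CEBPA was at 91.6 and 110.3 FPKM in vector libraries 1 and 2 and at 73.1 and 65.0 FPKM in JMJD3 libraries 1 and 2, and its call was lost without JMJD3 library 2 (log2 fold change -0.43). Other C/EBP genes of the list were called higher, namely CEBPE (0.72), CEBPD (0.67) and CEBPB (0.65). The calls of CEBPD and CEBPB are given for the edgeR fit alone. Whether any factor of the list bore on a receptor gene was not tested.

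Since several receptors mark a lineage, marker genes were set beside them. The marker lists too were chosen with earlier results of these data known. Of all genes tested, 21.6% were higher and 19.1% were lower. Promyelocyte markers were abundant, with 10 of 11 reaching 1 FPKM in a library. Their FPKM summed to 8969.4 in vector library 1, 10012.0 in vector library 2, 5299.4 in JMJD3 library 1 and 5250.5 in JMJD3 library 2, with 3 of 10 tested genes higher and 4 lower (median log2 fold change -0.21). MPO, the most abundant, was at 4888.6 and 5055.5 FPKM in vector libraries 1 and 2 and at 3278.0 and 3323.5 FPKM in JMJD3 libraries 1 and 2. CTSG (-3.91), PRTN3 (-1.81) and MPO (-0.57) fell most, and CEBPE (0.72), ANPEP (0.31) and CD33 (0.29) rose. The calls of ANPEP and CD33 were weak. Both were lost without JMJD3 library 1 (0.32 and 0.25) or 2 (0.31 and 0.32) and with limma on FPKM (0.15 and 0.06), and CD33, whose groups overlap on FPKM, kept its call in only 5 of 13 settings.

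Most mast cell, basophil and eosinophil markers that were tested rose, with 8 of 10 tested genes higher and 0 lower. Of all genes tested, 21.6% were higher and 19.1% lower. The median log2 fold change of the list was 2.03. The 12 genes summed to 879.2 FPKM in vector library 1, 992.9 in vector library 2, 1584.3 in JMJD3 library 1 and 1439.0 in JMJD3 library 2. RNASE2, the most abundant in vector libraries, was at 662.4 and 741.0 FPKM in vector and at 607.3 and 563.3 FPKM in JMJD3 libraries and was not called (log2 fold change -0.22, or -0.33 with a call without vector library 1). PRG2, the eosinophil major basic protein and the most abundant in JMJD3 libraries, rose from 155.8 and 182.3 FPKM in vector to 714.7 and 620.1 FPKM in JMJD3 libraries (log2 fold change 2.01). All genes of the list but RNASE2 summed to 216.7 and 251.9 in vector and to 976.9 and 875.7 in JMJD3 libraries. HDC (3.46), the enzyme of histamine synthesis, TPSB2 (2.66), a tryptase, and PRG3 (2.38) rose most, and PRG3, with at most 20 counts in a library, lost its call without JMJD3 library 1 (log2 fold change 2.26). CPA3, a mast cell protease that did not pass the filter, had 9 counts in each vector library and 0 in both JMJD3 libraries. The part of these marker changes in the receptor values was not tested.

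Markers of the lineages of EPOR and CSF1R were near 0. None of 11 erythroid markers passed the filter, and HBA1, HBA2, HBB, HBG1, HBG2, GYPB, ALAS2 and AHSP had 0 counts in all 4 libraries. The list summed to between 0.0380 and 0.132 FPKM, with KLF1 at 0.0843 FPKM or less, while EPOR was at 2.03 or more. The 10 monocyte and macrophage markers summed to 1.75 and 1.83 FPKM in vector libraries 1 and 2, against 2.27 and 1.97 FPKM in JMJD3 libraries 1 and 2. Of these, FCGR3A and C1QB had 0 counts, and 1 of 5 tested genes was higher, CX3CR1 (1.21), which lost its call without JMJD3 library 1 (log2 fold change 0.96).

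Other lineages were represented by few markers. The 9 neutrophil markers summed to between 27.9 and 33.7 FPKM, nearly all of it MMP9, and FCGR3B, CXCR1, MMP8, CEACAM8 and ALPL had 0 counts. Of 3 tested, CAMP was higher (2.09), with at most 15 counts in a library, and lost its call without vector library 1 (1.67), JMJD3 library 1 (1.86) or JMJD3 library 2 (2.30). The 8 stem and progenitor markers summed to at most 0.180 FPKM, with MECOM at 0.147 FPKM or less, PROM1, THY1, AVP and SPINK2 at 0 counts and none that passed the filter. The 7 megakaryocyte markers summed to between 1.09 and 2.16 FPKM, with GP1BA at 0.567 to 0.882 FPKM, PF4 and GP9 at 0 counts, and ITGA2B (1.43) was higher among 2 tested, a call lost with limma after adding 1 (0.45) or 0.1 (1.04) to FPKM. The 11 lymphoid markers summed to between 185.1 and 230.0 FPKM, mostly NKG7 (log2 fold change -0.12 with no call, or -0.30 with a call without vector library 1), with MS4A1 at 0 counts, and CD2 (1.38) and CD79A (0.83) were higher among 5 tested.

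**Figure D4:**
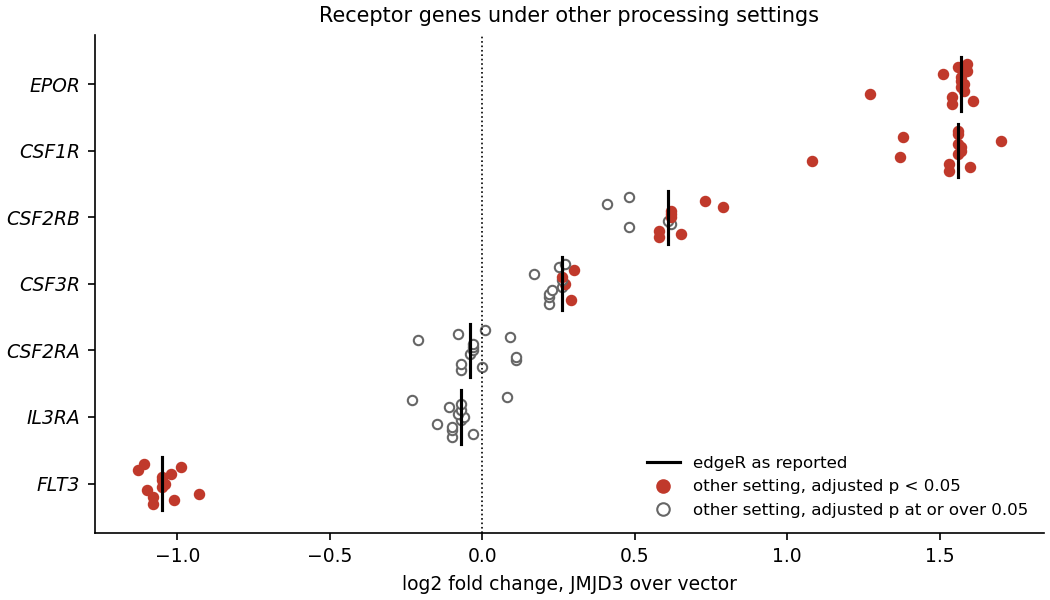
Log2 fold change of each tested receptor gene as reported (black line) and under 13 other settings of scaling, test, filter, block and libraries (points; red where the adjusted p is under 0.05). All points of EPOR, CSF1R and FLT3 are red, from 1.27 to 1.61, 1.08 to 1.70 and -1.13 to -0.93, while CSF2RB and CSF3R have points of both kinds and CSF2RA and IL3RA lie on both sides of 0.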

How the data were processed

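RNA-seq libraries of NB4 cells (2 with empty vector, 2 with JMJD3 vector) were measured. The deposited table lists, for every gene in each library, an estimated count and FPKM computed by the authors. The submitters' processing notes name CASAVA 1.8, TopHat2 2.0.4, RSEM, edgeR and GRCh38, with no role or order, while the study's methods name STAR, hg19, HTSeq-count and DESeq2, and the series text names BWA with ANOVA and TopHat with Cufflinks. Of the nonzero counts, 93.7% lay more than 0.01 from a whole number, so they are estimated counts, which can divide reads between similar genes. The table gives no positions, and those given here are from RefSeq on GRCh38.p14. The authors' own columns of log2 fold change, p-value and FDR were not used.

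Estimated counts were rounded, kept with filterByExpr (15246 of 60662 genes), and scaled with TMM. A single edgeR 4.0.16 quasi-likelihood model (R 4.3.3) held the 4 libraries, and p was adjusted by Benjamini-Hochberg over every gene kept, with a call below 0.05. CPM values use TMM-scaled library sizes, the SE is the size of the log2 fold change over the square root of F, and 95% intervals use the t distribution. Totals ranged from 34704909 to 40768225 counts. The fit was repeated with upper quartile scaling, size factors or the Wald test of DESeq2 1.42.0, limma 3.58.1 with 1 or 0.1 added to FPKM before log2, no filter, at least 10 counts in every library, a replicate block, each library left out in turn and thresholds of 1.5-fold and 2-fold. After seeing the data, a block with crossed numbers was added. Simulated counts served to check the tests.

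The members and lists were chosen with earlier results of these data known. The genes named included the 9 receptors and KDM6B. In each list, up to 3 of the largest rises and 3 of the largest falls at an adjusted p under 0.05 were taken. Also taken were ligand genes with at least 10 counts in a library and the nearest tested genes beside each receptor. The 2 genes most alike in log2(FPKM + 0.1) to each of the 3 receptors that changed most were taken too. Of marker lists, the gene with the highest FPKM summed over libraries and those at 0 were taken. PRG2, CPA3, CEBPB and CEBPD were added later, and not every gene that met these rules is named. Receptor genes were left out of the lists. Promoters are from RefSeq, and neighbours and overlaps from GENCODE release 44, matched by gene identifier, which held 93.9% of identifiers.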

Additional observations from a re-analysis of the deposited data

How the results depend on the processing

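CSF1R, EPOR, FLT3 and KDM6B kept their direction and their call under all 13 other settings. The counts of 3 receptor genes higher and 1 lower stayed within 1.5 times under these and the other thresholds. CSF2RB (0.61) lost its call with limma on log2(FPKM + 1) (0.48) and log2(FPKM + 0.1) (0.62), with no filter (0.61), where more genes were tested, and without vector library 2 (0.41) or JMJD3 library 2 (0.48), and kept it without either other library (0.41 to 0.79 over the 4). CSF3R (0.26) gained a call with upper quartile scaling (0.29), at least 10 counts in every library (0.27), the crossed block (0.26) and without vector library 2 (0.30), and not without the other libraries (0.17 to 0.30 over the 4). CSF2RA (-0.04) turned positive with both limma settings (0.11) and ranged from -0.21 to 0.09 with 1 library left out, and IL3RA (-0.07) from -0.23 to 0.08. The causes were not tested. Summing counts over several identifiers was not run, since each receptor name had 1.

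With the replicate number as a block, 3 receptor genes were higher and 1 was lower, and 3267 and 2415 of all genes. Deviations of same-numbered libraries had a correlation of -0.146, and the crossed block, added after seeing the data, gave 4 and 1 receptor genes and 4335 and 3772 of all genes.

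Pathway genes higher (53) fell to 33 with limma on log2(FPKM + 0.1), 32 with no filter, 33 at 1.5-fold and 10 at 2-fold with adjusted or unadjusted p, and ranged from 32 to 64 with 1 library left out. Those lower (22) fell to 14 with no filter, 9 at 1.5-fold and 4 at 2-fold with adjusted or unadjusted p, and ranged from 8 to 31 with 1 library left out. All genes higher (3292) fell to 2046 and 2032 with limma on log2(FPKM + 1) and log2(FPKM + 0.1), 1893 with no filter, 2027 and 1890 without JMJD3 libraries 1 and 2, 1151 at 2-fold and 1264 with unadjusted p at 2-fold. All genes lower (2906) fell to 1776 with no filter, 1368 and 1110 without JMJD3 libraries 1 and 2, 1205 at 1.5-fold, 430 at 2-fold and 508 with unadjusted p at 2-fold.

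Among uncalled neighbours and markers, signs turned for GRIK3 with limma (-0.03 and -0.10), MMP9 with upper quartile scaling (0.02) and, with 1 library left out, for MMP9 (-0.18 to 0.11), GP1BA (-0.14 to 0.49), NKG7 (-0.30 to 0.02), PPP2R3B (-0.09 to 0.12) and SWSAP1 (-0.20 to 0.04). With 2 libraries a group, a left-out library leaves 1, assumed to vary like the other group. Counts of 3 or fewer, as for IL5RA, allow no comparison. Besides left-out libraries, a change of test, filter, scaling or block also took the calls of FLT3LG, IL2RB, FLT1, IL9R, JAK1, PIK3CA, ID1, MYC, CX3CR1, CAMP, PRG3, PRKCSH, SLC25A6, CHIC2 and TRNT1, and gave calls to HMGXB3, RPL7P1, PAN3-AS1, RNASE2 and THPO.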
